A study of Rattus norvegicus with 12 samples.

Results

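The prostanoid receptors examined here are 7 genes: Ptger1, Ptger2, Ptger3 and Ptger4, which encode the prostaglandin E2 receptors EP1 to EP4, Ptgir (the prostacyclin receptor IP), Ptgfr (the prostaglandin F receptor FP) and Tbxa2r (the thromboxane receptor TP). They were taken as the array features whose only gene symbol is one of these names, and the brightest feature was used where a symbol had several. All 7 were found among the 18166 genes with a single symbol, and all 7 were among the 13636 genes bright enough to be tested. The question was which of these receptors had a measurable transcript in cells given alprostadil, and how the set differed when a MEK inhibitor was present.

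The cells were neonatal rat skin-derived precursors (SKPs), dermal progenitors of Sprague-Dawley pups that grow as floating spheres in medium with FGF2, EGF and B27, so every group was under growth factor stimulation. Cells from dissociated secondary spheres were exposed for 24 h in 4 groups of 3 arrays: vehicle, 100 nM alprostadil, 100 nM trimebutine maleate, or trimebutine maleate and trametinib at 100 nM each. Alprostadil is the drug name of prostaglandin E1. Trimebutine, given for disorders of gut motility, has activity at opioid receptors and at ion channels, and trametinib is an inhibitor of the kinases MEK1 and MEK2. No group received trametinib alone, so the inhibitor's difference is read against trimebutine. The 3 replicates of a group came from 3 independent isolates, so the p-values rest on how far treatment differences varied between those isolates. Each gene's spread was pooled over the 4 groups and drawn by limma toward that of all genes tested. It is therefore not the spread of a single comparison. Each RNA was run on an Affymetrix Rat Gene 2.0 ST array with a single dye, and all levels below are log2 expression values.

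Prostanoids are short-lived lipids made from arachidonic acid by cyclooxygenases, and they act on nearby cells through receptors coupled to G proteins. EP2, EP4 and IP couple to Gs and raise cyclic AMP, EP3 couples mainly to Gi and lowers it, and EP1, FP and TP act mainly through Gq and calcium. Prostaglandin E1 binds the EP receptors and also IP. In skin, prostaglandins of the E type are known for roles in blood flow, inflammation and wound repair.

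The promoters of the 4 receptor genes whose transcripts changed in at least 1 comparison are shown because the members moved in different directions in the same cultures. RefSeq promoters of the build GRCr8 were matched by gene ID for 7 of 7 members, and the 250 bases before the annotated start are printed here, 5′ to 3′ on the strand of the gene. Capitals mark matches to any of 6 motifs searched on both strands.
Ptger3, chr2:249264832-249265081, plus strand: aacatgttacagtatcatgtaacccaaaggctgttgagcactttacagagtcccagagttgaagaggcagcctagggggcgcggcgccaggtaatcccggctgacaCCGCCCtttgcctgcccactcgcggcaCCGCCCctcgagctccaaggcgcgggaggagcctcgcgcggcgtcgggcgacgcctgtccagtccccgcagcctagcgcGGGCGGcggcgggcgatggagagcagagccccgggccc
Ptger4, chr2:56073523-56073772, minus strand: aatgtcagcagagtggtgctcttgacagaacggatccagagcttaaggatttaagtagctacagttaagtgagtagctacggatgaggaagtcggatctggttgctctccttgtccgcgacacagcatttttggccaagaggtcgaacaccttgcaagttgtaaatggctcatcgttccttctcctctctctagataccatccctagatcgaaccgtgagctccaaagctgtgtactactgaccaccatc
Ptgir, chr1:86707440-86707689, plus strand: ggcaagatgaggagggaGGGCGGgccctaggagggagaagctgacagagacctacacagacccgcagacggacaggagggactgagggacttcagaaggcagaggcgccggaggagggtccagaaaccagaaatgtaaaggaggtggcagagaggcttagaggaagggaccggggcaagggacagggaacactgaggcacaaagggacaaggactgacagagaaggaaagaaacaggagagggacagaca
Ptgfr, chr2:243425624-243425873, minus strand: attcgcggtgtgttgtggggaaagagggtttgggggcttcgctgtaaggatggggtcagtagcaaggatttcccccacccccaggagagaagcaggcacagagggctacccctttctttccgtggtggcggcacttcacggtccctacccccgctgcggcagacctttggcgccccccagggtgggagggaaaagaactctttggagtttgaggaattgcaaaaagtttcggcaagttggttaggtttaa
The motifs were searched in the window from 250 bases before to 50 after the start. They were the cyclic AMP response element TGACGTCA, held by 1.83% of all 33469 promoters, and its core TGACG, which lies within it and was held by 21.2%. The others were AP-1 (TGANTCA, 7.33%), an ETS site (CCGGAAG, 8.75%), a GC box (GGGCGG, 33.1%) and a TATA box (TATAAA, 14.2%). In these 4 promoters only the GC box matched: in Ptger3 at positions -144, -117 and -38 from the start, and in Ptgir at -233. The 300-base Ptger3 window had 69.7% G and C, against a median of 51.7% over all promoters. Among the receptors that were not called, Ptger1 held a GC box and Ptger2 held 2 ETS sites. A match is a description of the letters, and no binding was measured. In Ptger4 the bases after the annotated start open with ATG, the letters of a start codon. Its printed bases may therefore precede the coding sequence and not the start of transcription. The absence of a match there says nothing about the Ptger4 promoter.

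The 12 arrays had medians between 6.41 and 6.50, correlations within groups of 0.983 to 0.993, and no pair with the same values. The cultures carried the labelled identity in part: of 11 dermal precursor markers measured, 9 lay above a low-signal reference. That reference is the 95th percentile, 6.87, of the mean levels of 70 olfactory receptor features, genes that dermal cells are taken not to express. The markers Sox2 and Twist1 lay below it. No endothelial marker (0 of 5) and no keratinocyte marker (0 of 5) lay above it, whereas 11 of 14 macrophage markers and 6 of 6 adipocyte markers did. So did 3 of 5 smooth muscle markers, 3 of 5 Schwann and neural markers and 1 of 6 melanocyte markers. In these bulk samples, fewer cells of a type and less RNA per cell cannot be told apart.

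Against the same reference, the receptors fell into a detected and a dim set. Ptger3, Ptger4, Ptgir and Ptgfr lay above 6.87 on 12 of 12 arrays. Ptger2 and Tbxa2r lay above it on 5 arrays each, and Ptger1 on 0. A probe set's brightness depends on its probes, so these levels do not rank the receptors against each other, and a dim value does not show that the transcript was absent. The array held 2 features for Ptger2, with identical values. Of the receptors for prostaglandin D2, which are not members, only Ptgdr2 was measured, at 5.73 to 6.08 over all arrays, and it was not called in any comparison.

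**Figure D1:**
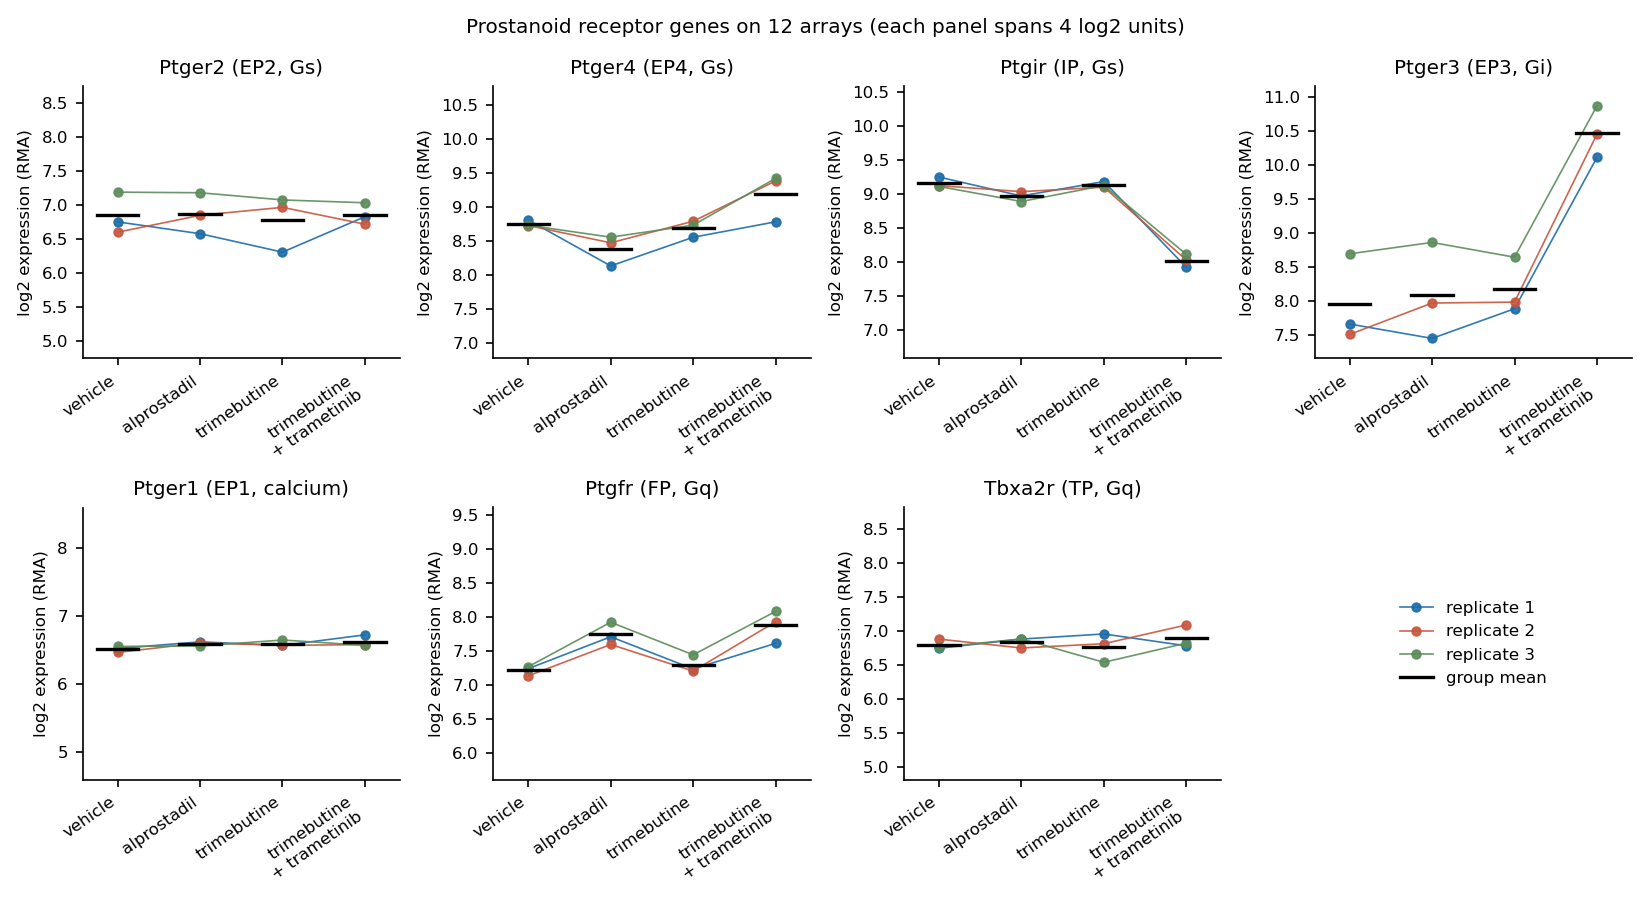
Log2 expression (y axis) of the 7 receptor genes by treatment group (x axis). Each point is 1 array, coloured lines join arrays with the same replicate number, and black bars are group means. Every panel spans 4 log2 units. The 3 arrays with trametinib lie between 10.11 and 10.87 for Ptger3, above all others, and between 7.93 and 8.11 for Ptgir, below all others.

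Across the 4 groups, 4 of the 7 receptors differed in limma's moderated F test with the replicate number as a block. These were Ptger3 (adjusted p = 3.9e-07), Ptgir (7.08e-07), Ptgfr (0.000173) and Ptger4 (0.00139), the same 4 that lay above the reference on every array. Over all genes tested, 42.7% passed the same test, so the members' share is read against a high background.

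Alprostadil raised Ptgfr, and none of the EP genes nor Ptgir passed the test. The count was 1 of 7 members higher and 0 lower at an adjusted p under 0.05, against 1.17% of all genes higher and 0.711% lower. The members' median difference was 0.04, and that of all genes was -0.01. Trimebutine alone changed 0 of 7 members. Trametinib with trimebutine, against trimebutine, raised 3 of 7 (Ptger3, Ptgfr and Ptger4) and lowered 1 of 7 (Ptgir), where 21.2% of all genes were higher and 20.8% lower. The members' median difference there was 0.13, beside 0.03 over all genes.

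Ptger4 encodes EP4, a Gs-coupled receptor and a known target of prostaglandin E1. Its levels in vehicle were 8.81, 8.73 and 8.73 in replicates 1, 2 and 3. With alprostadil they were 8.13, 8.47 and 8.56, and with trimebutine 8.56, 8.79 and 8.73. All 3 alprostadil arrays lay below all 3 vehicle arrays. With trimebutine and trametinib the levels were 8.78, 9.38 and 9.42, so that replicates 2 and 3 lay above every other array while replicate 1 was near vehicle. Under alprostadil the difference from vehicle was -0.37 (SE 0.116, 95% interval -0.62 to -0.11), in the same direction in 3 of 3 pairs. It did not pass (unadjusted p = 0.00958, limma adjusted p = 0.178). Against trimebutine, trametinib raised Ptger4 by 0.50 (SE 0.116, 95% interval 0.24 to 0.76, adjusted p = 0.0052), or 1.42-fold, in 3 of 3 pairs, by 0.23 in replicate 1 and by 0.59 and 0.69 in the other pairs. That call was lost without replicate 2 (adjusted p = 0.0726) and without replicate 3 (0.0506). In order, the mean levels ran from alprostadil (8.39) through trimebutine (8.69) and vehicle (8.76) to the combination (9.20). The difference between the neighbours trimebutine and vehicle was -0.06 (95% interval -0.32 to 0.19) and was not called.

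Ptgir encodes IP, the other Gs-coupled receptor that was measured well above the reference. Vehicle arrays read 9.25, 9.13 and 9.11, alprostadil arrays 8.97, 9.04 and 8.89, and trimebutine arrays 9.19, 9.10 and 9.13. The combination arrays read 7.93, 8.03 and 8.11. The fall with trametinib was thus wider than the whole spread of the other 9 arrays, which did not reach down to it. Trametinib lowered Ptgir 2.16-fold against trimebutine, a difference of -1.11 (SE 0.069, 95% interval -1.27 to -0.96, adjusted p = 4.23e-07), in 3 of 3 pairs. With alprostadil the difference from vehicle was -0.20 (SE 0.069, 95% interval -0.35 to -0.04), lower in 3 of 3 pairs, and it did not pass (adjusted p = 0.237). Vehicle and trimebutine, the top neighbours in the order of means, differed by -0.03 (95% interval -0.18 to 0.13).

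Ptger2 encodes EP2, the remaining Gs-coupled EP receptor, and was dim. Its levels were 6.75, 6.60 and 7.18 with vehicle, 6.57, 6.84 and 7.18 with alprostadil, 6.30, 6.96 and 7.07 with trimebutine, and 6.82, 6.71 and 7.03 with the combination. The 4 groups overlapped throughout, and no pair of neighbours differed beyond its spread. The difference with alprostadil was 0.02 (95% interval -0.27 to 0.31), and that of trametinib against trimebutine 0.08 (95% interval -0.21 to 0.37). Both signs turned when single replicates were left out.

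Ptger3 encodes EP3, the receptor of the set that lowers cyclic AMP, and showed the largest difference of the 7. The vehicle levels were 7.66, 7.51 and 8.69, those with alprostadil 7.45, 7.97 and 8.86, and those with trimebutine 7.89, 7.98 and 8.64. The combination gave 10.11, 10.45 and 10.87. The first 3 groups overlapped, with replicate 3 the highest in each, while the lowest combination array exceeded the highest of the other 9. Trametinib raised Ptger3 by 2.30 against trimebutine (SE 0.143, 95% interval 1.99 to 2.62, adjusted p = 4.18e-07), or 4.94-fold. The paired differences were 2.22, 2.47 and 2.22, and the gene ranked 18 from the top of 13636 by difference. With alprostadil the difference was 0.14 (95% interval -0.18 to 0.46) and with trimebutine 0.22 (95% interval -0.10 to 0.53), neither called. The sign under alprostadil turned without replicate 2 (-0.02) and without vehicle replicate 2 (-0.03).

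Ptgfr encodes FP, whose main ligand is prostaglandin F2-alpha and which signals through Gq. It was the one member called in both drug comparisons. Levels were 7.24, 7.13 and 7.27 with vehicle and 7.24, 7.20 and 7.44 with trimebutine. With alprostadil they were 7.71, 7.59 and 7.92, and with the combination 7.61, 7.93 and 8.08. The alprostadil and combination arrays overlapped with each other, and all 6 lay above all 6 vehicle and trimebutine arrays. Alprostadil raised Ptgfr by 0.53 (SE 0.086, 95% interval 0.34 to 0.72, adjusted p = 0.0105), or 1.44-fold, with paired differences of 0.47, 0.46 and 0.65. The size moved little between alternatives (0.46 to 0.60), but the call was lost in several. Its adjusted p was 0.132 without the replicate block, 0.16 without replicate 2 and 0.122 without replicate 3. It was 0.0634 and 0.0624 without vehicle replicates 2 and 3, and 0.067 and 0.05 without alprostadil replicates 1 and 3. Trametinib raised Ptgfr by 0.58 against trimebutine (SE 0.086, 95% interval 0.39 to 0.77, adjusted p = 0.000282), or 1.49-fold, in 3 of 3 pairs. The neighbours in the order of means were vehicle (7.21) and trimebutine (7.29), then alprostadil (7.74) and the combination (7.87). Trimebutine differed from vehicle by 0.08 (95% interval -0.11 to 0.27) without a call, and the upper neighbours overlapped.

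Ptger1 encodes EP1, which acts through calcium, and lay below the low-signal reference on every array, between 6.47 and 6.72. Its differences were 0.08 with alprostadil (95% interval -0.05 to 0.21) and 0.03 with trametinib against trimebutine (95% interval -0.10 to 0.16). Tbxa2r encodes TP, the thromboxane receptor that couples to Gq and to G12 family proteins. Its arrays ran from 6.54 to 7.09 with all groups overlapping, and the differences were 0.04 (95% interval -0.18 to 0.27) and 0.13 (95% interval -0.10 to 0.35). Neither gene was called in any comparison, and for Tbxa2r no order of the group means exceeded the spread. For Ptger1 all 3 vehicle arrays (up to 6.55) lay below every array of the other groups (from 6.56). That gap was narrow and lay under the low-signal reference.

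**Figure D2:**
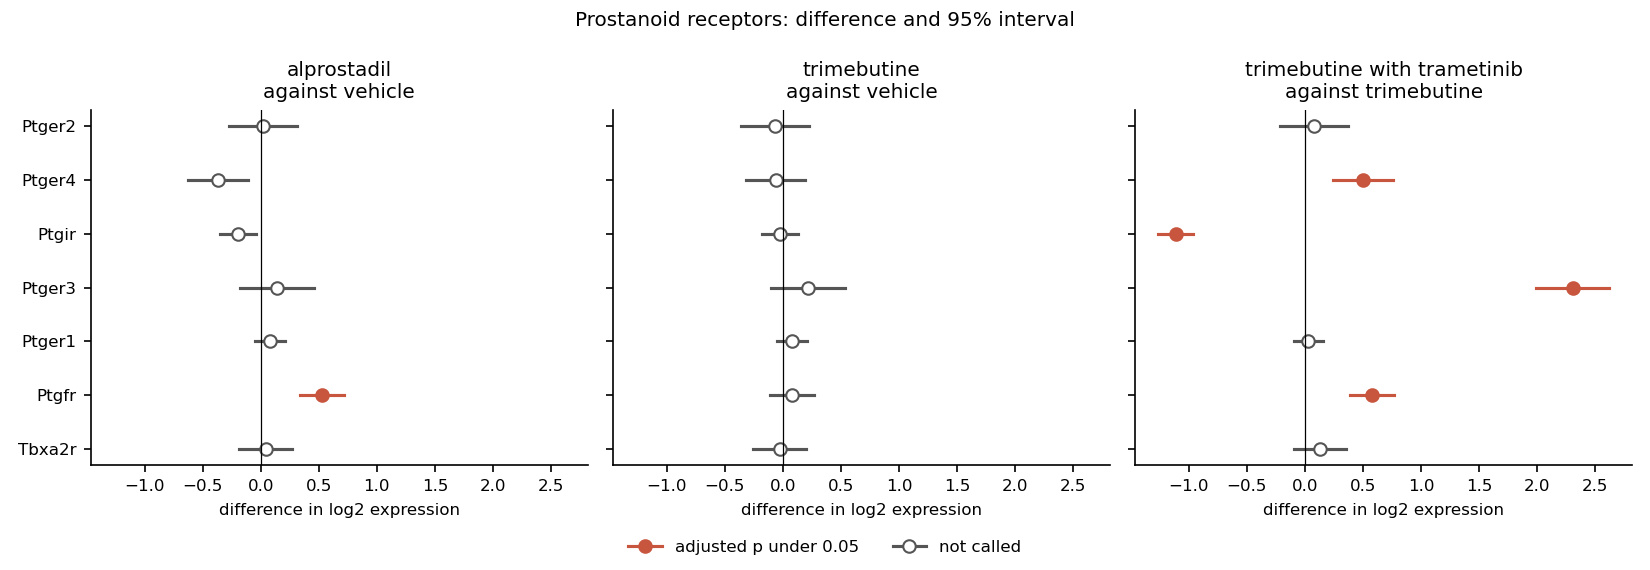
Differences in log2 expression (x axis) of the 7 receptor genes (y axis) in 3 comparisons, with 95% intervals from limma. Filled points passed an adjusted p under 0.05, open points did not. With alprostadil only Ptgfr (0.53) is filled, with trimebutine none, and with trametinib Ptger3 (2.30), Ptgfr (0.58), Ptger4 (0.50) and Ptgir (-1.11). The sign of Ptger1 with trametinib (0.03) turned when arrays were centred on their medians.

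Trimebutine alone left the set without a called change: the members' differences from vehicle lay between -0.06 and 0.22. Over all genes limma called 0%, or 0 of 13636, with 252 at an unadjusted p under 0.05. The fit without the block also called 0, with 143 at an unadjusted p under 0.05. Against vehicle, trimebutine with trametinib gave the same 4 calls in the same directions as against trimebutine, 3 of 7 higher and 1 of 7 lower, where 22.1% of all genes were higher and 21.1% lower. Those comparisons share the combination arrays. The differences from vehicle were 2.52 for Ptger3 (adjusted p = 2.13e-07), -1.14 for Ptgir (3.53e-07), 0.66 for Ptgfr (0.000108) and 0.44 for Ptger4 (0.0106). The Ptger4 difference against vehicle rested on replicates 2 and 3, as replicate 1 gave -0.03. Its call was lost when only these groups were fitted (adjusted p = 0.0662). It was also lost without vehicle replicate 2 (0.0586), vehicle replicate 3 (0.0561), combination replicate 2 (0.0557), or all arrays of replicate 2 (0.17) or replicate 3 (0.109).

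The trametinib difference and the alprostadil difference share no arrays, and their difference was tested directly. It was called for 3 of 7 members, against 31.2% of all genes. Ptger3 responded more strongly upward to trametinib by 2.16 (SE 0.202, adjusted p = 1.88e-05). Ptgir was lower by -0.92 (SE 0.098, adjusted p = 4.87e-05). For Ptger4, where the alprostadil estimate was negative and the trametinib estimate positive, the differences were 0.87 apart (95% interval 0.51 to 1.23, adjusted p = 0.00227). For Ptgfr they were 0.05 apart (95% interval -0.22 to 0.32, adjusted p = 0.789), an interval that includes differences of either sign. The agents differ in kind and are set side by side only as readouts of the same cultures.

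Within groups, the isolates differed in several of these receptors. Of the spread within groups, replicate number accounted for 88.3% in Ptger3, 68.6% in Ptger2, 61.5% in Ptgfr and 54.3% in Ptger4. It accounted for 23.3% in Ptger1, 21.5% in Tbxa2r and 2.29% in Ptgir, beside a median of 41.0% over all genes tested. The mean level of Ptger3 over the 4 groups was 8.28 in replicate 1, 8.48 in replicate 2 and 9.27 in replicate 3, and that of Ptger2 was 6.61, 6.78 and 7.12. Macrophage markers differed between the isolates as well: their summed linear signal was 3036 to 4440 in replicate 1, 5077 to 5984 in replicate 2 and 6264 to 9256 in replicate 3. Adipocyte markers ranged from 2168 to 8269, from 3609 to 8858 and from 5289 to 9697. Their part in the receptor levels was not tested.

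Markers of the dermal precursors and of other cell types also moved with trametinib. Of 11 dermal precursor markers, 3 rose and 2 fell against trimebutine, with differences from -0.79 to 0.99. Over all genes 21.2% were higher and 20.8% lower. All 6 adipocyte markers rose against trimebutine, among them Lpl (1.93) and Plin1 (0.62). Their summed linear signal was 2400 to 6310 with vehicle, 2168 to 5289 with alprostadil, 2194 to 6382 with trimebutine and 8269 to 9697 with the combination, so the combination did not overlap the rest. Without the replicate block 1 of these 6 calls was left. Of 5 smooth muscle markers, Tagln (2.37) and Smtn (0.18) rose. The other 3 were not called, and the lowest difference was -0.34. The sum went from 2018 to 2087 with trimebutine to 4575 to 5533. It gives most weight to the brightest genes, Smtn and Tagln (mean levels 10.04 and 9.86), and does not show a rise of the whole list. Of 5 Schwann and neural markers, Tubb3 (2.86) and S100b (0.58) rose and Gfap fell by 0.22, with sums of 483.8 to 582.1 and 832 to 1008. The mean levels of Tubb3 (6.45) and Gfap (6.18) over all arrays lay under the low-signal reference. Of 13 macrophage markers tested, 4 rose and 3 fell, Cd68 by 1.03, and the sums overlapped (4117 to 8305 and 3036 to 6264). Without the block 1 rose and 1 fell among these 13, and the calls for Smtn, S100b and Gfap were lost as well. Under alprostadil, the macrophage marker Adgre1 fell by 0.83 and Tagln fell by 0.66, and neither call held without the block. The part of these shifts in the receptor differences was not tested.

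Upstream of the receptors are the genes that make, carry and break down prostaglandins. Like the lists below, this one was chosen with earlier results of these data known. With trametinib against trimebutine 8 of 16 tested fell, 0 rose and 8 were not called, where 20.8% of all genes were lower and 21.2% higher. The median was -0.20 beside 0.03 over all genes, and without the replicate block 7 fell, with Tbxas1 lost. Slco2a1, the prostaglandin uptake transporter, fell by 2.81 (SE 0.070, adjusted p = 2.49e-09), and Ptgs2, the inducible cyclooxygenase, fell by 2.72 (SE 0.090, adjusted p = 5.49e-09). Pla2g4a, the phospholipase that frees arachidonic acid, fell by 1.47, and Ptgr1, which inactivates prostaglandins, fell by 1.42. Ptgis, the prostacyclin synthase, fell by 0.53 and Akr1b1, an aldose reductase that can make prostaglandin F2-alpha, fell by 0.40. Every member of this list called with trametinib against trimebutine was lower, those for making and those for clearing prostaglandins alike. For clearing these were Slco2a1 and Ptgr1. Hpgd, which also breaks down prostaglandins, and Ptgds were listed and measured but too dim to be tested. Alprostadil gave 2 of 16 higher and 2 lower, where 1.17% of all genes were higher and 0.711% lower, with a median of 0.01: Ptgs2 (0.49, adjusted p = 0.021) and Pla2g4a (0.35, 0.0344) rose, and Hpgds, the hematopoietic prostaglandin D synthase, fell by 0.43 (0.0122) and Ptgis by 0.32 (0.0248). None of these 4 alprostadil calls held without the replicate block. Hpgds and Ptgis were dim, with mean levels of 6.80 and 6.67, under the low-signal reference.

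Downstream of the receptors, no tested gene of the coupling machinery was called under alprostadil. The counts were 0 of 7 G protein alpha subunits and 0 of 8 adenylyl cyclases. For cyclic AMP effectors they were 0 of 11, and for receptor kinases and arrestins 0 of 5. These lists named 10, 9, 13 and 6 genes, and Gnai1 and Gnai3 were among those not tested. Gnas, which encodes the Gs subunit, was dim, with a mean level of 6.75, under the low-signal reference of 6.87. With 1.17% of all genes higher and 0.711% lower, counts of 0 in lists of this size are near the background. Adcy3 had a difference of -0.31 (95% interval -0.50 to -0.11) that did not pass (adjusted p = 0.133). With trametinib against trimebutine, 21.2% of all genes were higher and 20.8% lower. Among the adenylyl cyclases, the enzymes that make cyclic AMP, Adcy2 (-0.87), Adcy3 (-0.84), Adcy8 (-0.74) and Adcy7 (-0.43) fell and Adcy5 (0.43) rose. The mean levels of Adcy8 (6.72) and Adcy5 (6.80) also lay under the low-signal reference. Among the kinases and arrestins that switch off receptors, Arrb1 fell by 2.19 (SE 0.121, adjusted p = 1.83e-07) and Arrb2 by 0.39, while Grk5 rose by 0.78. Of the G protein subunits, Gna12 (-0.45) and Gnaq (-0.22) fell and Gnao1 (0.25) rose. Of the cyclic AMP effectors, the protein kinase A catalytic genes Prkacb (-0.52) and Prkaca (-0.41) fell, and Crtc3 (0.24), Creb1 (0.22) and Prkar2a (0.17) rose. The calls for Gnaq, Gnao1, Prkar2a and Arrb2 were lost without the replicate block.

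Other Gs-coupled receptors give a comparison for Ptgir and Ptger4. With alprostadil 0 of 7 were called. With trametinib against trimebutine 3 of 7 rose and 1 fell, where 21.2% of all genes were higher and 20.8% lower. Those that rose were Pth1r, the parathyroid hormone receptor (0.88), Vipr2, a receptor for vasoactive intestinal peptide (0.65), and Adora2b, an adenosine receptor (0.35). Vipr2 was dim, with a mean level of 6.51, under the low-signal reference. Adcyap1r1, the receptor for the peptide PACAP, fell by 2.19 (SE 0.076, adjusted p = 7e-09).

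Transcripts known to follow cyclic AMP rose with alprostadil while its receptor transcripts did not pass the test. The list of 12 targets was chosen with earlier results of these data known, so its counts are a description only. Of these 12 targets 8 rose and 0 fell, where 1.17% of all genes were higher and 0.711% lower. The median difference was 0.56 beside -0.01 over all genes, and without the replicate block 6 rose. The orphan nuclear receptor Nr4a1 rose by 2.46 (SE 0.177, adjusted p = 0.000103), Pde4b by 1.24 and Pde4d by 0.84, both phosphodiesterases that break down cyclic AMP. The growth factor gene Areg rose by 1.11, the clock gene Per1 by 0.52 and Crem, a cyclic AMP response factor, by 0.49. With trametinib against trimebutine 7 of the 12 rose and 2 fell, where 21.2% of all genes were higher and 20.8% lower, with a median of 0.53 beside 0.03 over all genes. Nr4a3 rose by 2.42, Nr4a1 by 1.76, Dusp1 by 0.80, Nr4a2 by 0.72, Fos by 0.69 and Crem by 0.52. Sik1 fell by 0.36 and Areg fell by 0.36; these names were added after their values were seen. Areg thus rose with alprostadil and fell with trametinib against trimebutine, although that fall was not called without the block. Against vehicle, the combination's Areg difference was -0.23 and was not called (limma adjusted p = 0.153). The mean levels of Areg (6.82) and Pde4b (6.77) over all arrays lay under the low-signal reference.

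**Figure D3:**
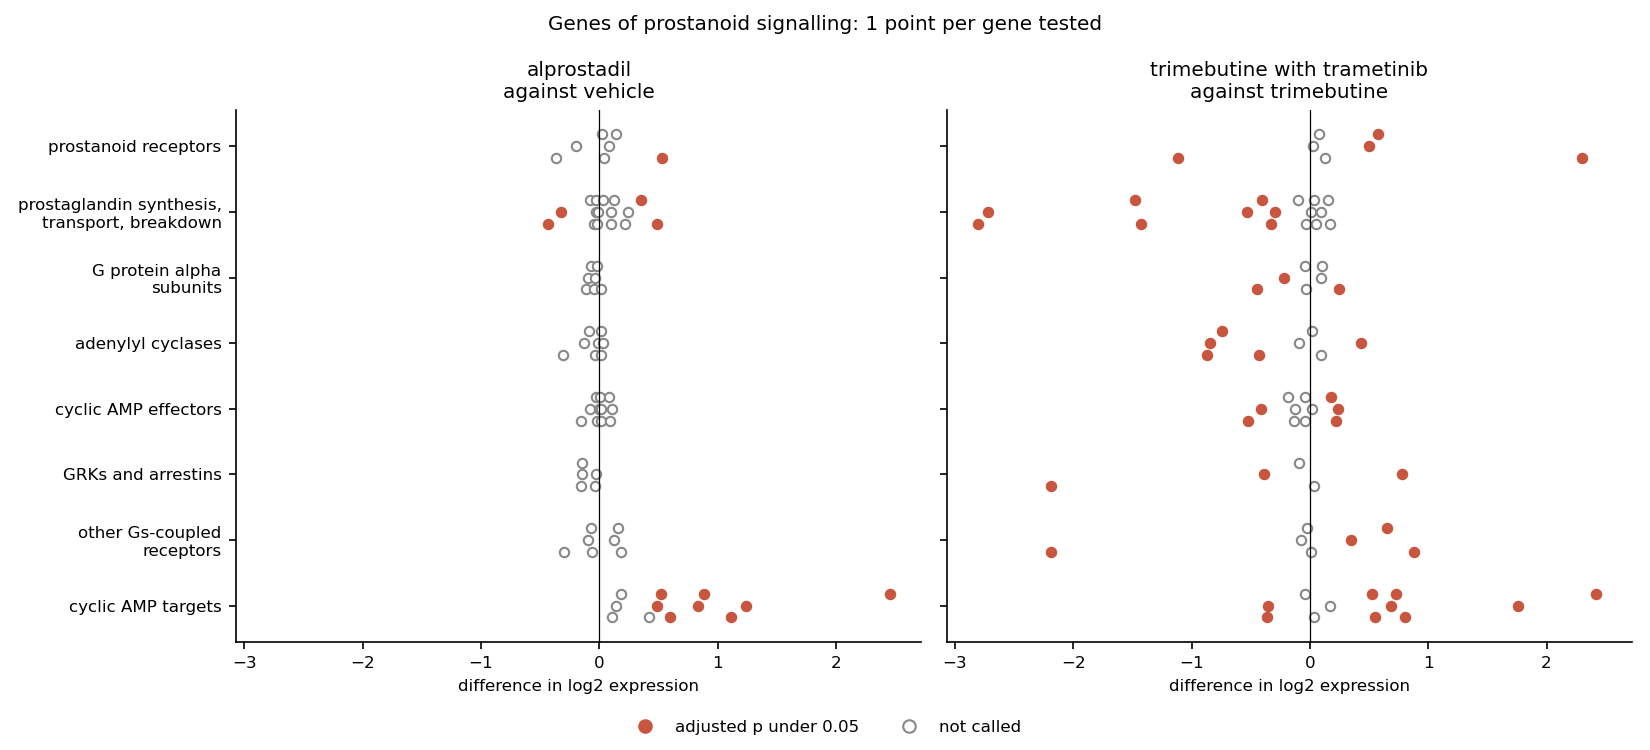
Differences in log2 expression (x axis), 1 point per gene tested, for the receptors and 7 lists of related genes (y axis), under alprostadil against vehicle (left) and trimebutine with trametinib against trimebutine (right). Filled points passed an adjusted p under 0.05. With alprostadil 8 of 12 cyclic AMP targets are filled to the right of zero, and with trametinib 8 of 16 genes of prostaglandin synthesis, transport and breakdown are filled to its left. The lists were chosen with earlier results of these data known.

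The genes whose profile over the 12 arrays was most like that of each changed receptor were found by Pearson's r after the mean of each replicate number was removed. The arrays fall into treatment groups, so a high r can come from a shared pattern over 4 groups, and no p is given. For Ptger3 they were Cd248, Cilk1 and Dnajb2 (r = 0.99 each), with trametinib differences of 1.00, 0.53 and 0.87 and alprostadil differences of -0.03, -0.01 and 0.01. For Ptgir they were Kiaa1549, Adgrl1 and Lrig1 (r = 1.00 each), which had trametinib differences of -1.46, -0.36 and -1.09. For Ptgfr they were Hoxc8 (r = 0.98), Crem (0.97) and Antxr1 (0.97). Crem, from the list of cyclic AMP targets, had differences of 0.49 with alprostadil and 0.52 with trametinib, beside 0.53 and 0.58 for Ptgfr. For Ptger4 they were Ergic1 (r = 0.99), Ehd2 (0.98) and Ubac2 (0.98), each with a negative estimate under alprostadil (-0.11, -0.20 and -0.13) and a positive one with trametinib (0.15, 0.27 and 0.19). For the dim receptors the nearest genes were Slc46a2, Vwf and Ppm1j for Ptger1 (r = 0.91 to 0.93), Inppl1, Siglec10 and Pirt for Ptger2 (0.83 to 0.90), and Mir328, Krtap7-1 and Ccdc154 for Tbxa2r (0.87 to 0.89).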

How the data were processed

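Total RNA of 12 cultures was measured on 1-colour arrays. The authors deposited 1 log2 value per feature and array, for which the submitters' processing notes name oligo and RMA; tool versions and any annotation build were not given in the sources used here. RMA forces the probe values of every array onto a common distribution before they are summarised per feature, so these values cannot show a shift in total RNA. Sample titles gave the groups and the replicate numbers, and 3 arrays per group limit the precision.

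The arrays held 36685 features: 18511 with a single gene symbol, 575 with more than 1 and 17599 without. Symbols were updated by Entrez ID to the GRCr8 gene table (18394 matched, and 117 kept the annotation's symbol). Only features with 1 symbol were used, the brightest per gene. Genes with a mean under the 25th percentile, 5.83, were left out.

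A limma model (limma 3.58.1 in R 4.3.3; lmFit, contrasts.fit, eBayes, two-sided) with a mean per group and the replicate number as a block was fitted to all 12 arrays with 6 residual degrees of freedom. P-values were adjusted by Benjamini-Hochberg over 13636 genes within each contrast, and a gene was called at an adjusted p under 0.05. The pairing comes from the data and the labels' replicate numbers. Deviations from group means correlated at 0.21 to 0.81 in 18 pairs of arrays with the same number. In 36 pairs with different numbers they correlated at -0.71 to 0.10. Deviations within a group cancel out, so these ranges are tied to each other and the lower range is not separate support. Named genes were the 7 members, the 3 genes most like each, and up to 6 called genes with the smallest p per pathway list and contrast. The members and lists were chosen with earlier results of these data known. Alternatives were no block, other filters, median centring, the mean of a symbol's features, all features as the tested family, a prior spread that follows the level, only the groups compared, and leaving out each array and each replicate number. Counts for the lists without the block were added after seeing the data.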

Additional observations from a re-analysis of the deposited data

How the results depend on the processing

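Of 615 member differences recomputed under alternatives, 560 kept direction and side of the threshold, 15 lost their call, 0 gained one and 40 changed sign. All the sign changes were in differences that were not called. The 615 include such uncalled differences, and only called ones could lose a call. Losses fell on Ptgfr with alprostadil (7 of 17 alternatives) and on Ptger4 with trametinib, against trimebutine (2 of 17) and against vehicle (6 of 17). Ptger3, Ptgir and Ptgfr with trametinib against trimebutine kept direction and call in all 17 alternatives, with adjusted p up to 0.000708, 0.000272 and 0.013. Called members under alprostadil went from 1 to 0 without the replicate block and ranged from 0 to 1 with replicates left out. Genes called under alprostadil numbered 257, and 53 without the replicate block, 169 without the filter, 166 with all features as the family, 464 with a prior spread that follows the level, and 37 to 208 with replicates left out. With replicates left out, calls ranged from 3587 to 5669 for trametinib against trimebutine, 3661 to 5886 against vehicle, 2235 to 4390 for the difference of differences and 3244 to 5662 in the F test; the low ends leave out replicate 2, and fewer arrays were fitted. Median centring turned Ptger1 with trametinib against trimebutine to -0.0031 and Ptger2 with trametinib against vehicle to -0.026.

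With replicates left out, differences that changed sign ranged as follows. Under alprostadil Ptger2 ran from -0.10 to 0.12, Ptger3 from -0.028 to 0.31 and Tbxa2r from -0.037 to 0.14. Under trimebutine Ptger2 ran from -0.28 to 0.13, Ptger4 from -0.15 to 0.10, Ptgir from -0.051 to 0.026 and Tbxa2r from -0.14 to 0.078. With trametinib against trimebutine Ptger1 ran from -0.034 to 0.083 and Ptger2 from -0.14 to 0.24, and against vehicle Ptger2 ran from -0.12 to 0.10. In the difference of differences Ptger2 ran from -0.26 to 0.33, Ptgfr from -0.054 to 0.17 and Tbxa2r from -0.075 to 0.28. The cause of these shifts was not tested. Signal near the low reference limits what can be read for Ptger1, Ptger2 and Tbxa2r.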
